A study of Mus musculus with 13 samples.

Results

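Pericytes of the mouse mammary gland were taken from 5 single-cell libraries, 1 each from puberty, adult, pregnancy, lactation and involution. A barcode was counted as a member when it held 500 to 7500 genes and at most 10% mitochondrial (mt-) unique molecular identifiers (UMIs), at least 2 UMIs of Rgs5, at least 1 UMI among Mcam, Notch3 and Cspg4, and 0 UMIs of Pdgfra, Epcam and Pecam1. This rule found 431 members, with 60 of 8410 barcodes in puberty, 20 of 12832 in adult, 99 of 13257 in pregnancy, 110 of 8947 in lactation and 142 of 10847 at involution. The members were chosen by the UMIs of these 7 genes, so the levels of those genes are given below as a description. The label held in part. Of 24 other pericyte markers, 18 of the 23 with at least 50 member UMIs were at least 2-fold above fibroblasts in each of the 5 libraries, as were 6.79% of the 6065 genes tested. However, Myh11, a smooth muscle myosin that defines vascular smooth muscle cells, was detected in 46 of 60 members in puberty, 15 of 20 in adult, 44 of 99 in pregnancy, 59 of 110 in lactation and 53 of 142 at involution. Rgs5 is transcribed in both cell types and the rule does not separate them, so the members are called Rgs5+ cells here.

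The libraries hold the Lin-CD24- stromal fraction of wildtype C57BL/6 females, sorted after depletion of CD31+, CD45+ and TER-119+ cells, with a pair of females per condition. The puberty glands came from 4-week mice by the labels (the methods give an age a few days older) and the adult glands from virgin 9-week mice. Pregnancy was sampled at 14.5 days, lactation at 10 days and involution at 4 days. A second set of glands, taken here as virgin, came from 2 placebo libraries of 9-week females, each from a pair of females by the methods. These gave 110 and 130 Rgs5+ cells by the same rule. Placebo pellets had been implanted under the skin, and the methods do not state that these mice were virgin. With 1 library per stage there is no replicate of a stage and no test between stages. Ratios are between summed UMI counts with exact 95% intervals that cover counting error only, and the 2 placebo libraries show how far libraries of 1 condition lay apart.

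Pericytes and vascular smooth muscle cells wrap the endothelium of small vessels. Smooth muscle actin and myosin give the wall its tone. Kcnj8 and Abcc9 encode the pore and the sulfonylurea receptor of a vascular ATP-sensitive potassium channel whose opening relaxes the cell, Rgs5 damps signalling from contractile G protein-coupled receptors, and Notch3 is the mural Notch receptor that reads ligands on endothelial cells. In the mammary gland the capillary bed around the alveoli enlarges during pregnancy and lactation and regresses after weaning.

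A pair of gene groups is followed most closely here, the contractile genes and the channel genes Kcnj8 and Abcc9. Their RefSeq promoter windows (GRCm38.p6, 250 bases before to 50 after the annotated start, 5′ to 3′ on the gene's own strand) are shown for 2 genes of each, with capitals marking the serum response element called the CArG box or the letters TGGGAA, the core bound by the Notch effector Rbpj, on either strand. The CArG box was counted only as CCWWWWWWGG, with W for A or T. Forms with 1 mismatch were not marked, such as ccctatatgg and ccttgtttgg in the Acta2 window. No window shown held both marked motifs. The windows are chr19:34255324-34255623 on the minus strand for Acta2, chr2:156775214-156775513 on the plus strand for Myl9, chr6:142571565-142571864 on the minus strand for Kcnj8 and chr6:142702225-142702524 on the minus strand for Abcc9.
Acta2: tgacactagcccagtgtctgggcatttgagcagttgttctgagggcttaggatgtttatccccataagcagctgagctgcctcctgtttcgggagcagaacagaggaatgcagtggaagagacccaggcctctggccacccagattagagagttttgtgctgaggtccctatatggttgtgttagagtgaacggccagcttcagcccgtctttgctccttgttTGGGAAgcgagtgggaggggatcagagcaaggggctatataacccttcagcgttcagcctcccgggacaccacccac
Myl9: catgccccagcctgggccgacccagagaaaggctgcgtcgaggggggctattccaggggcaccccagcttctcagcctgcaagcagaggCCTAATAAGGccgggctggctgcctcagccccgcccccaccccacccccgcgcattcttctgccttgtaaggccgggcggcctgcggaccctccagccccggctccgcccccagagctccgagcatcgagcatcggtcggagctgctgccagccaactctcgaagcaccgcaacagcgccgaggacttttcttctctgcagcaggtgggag
Kcnj8: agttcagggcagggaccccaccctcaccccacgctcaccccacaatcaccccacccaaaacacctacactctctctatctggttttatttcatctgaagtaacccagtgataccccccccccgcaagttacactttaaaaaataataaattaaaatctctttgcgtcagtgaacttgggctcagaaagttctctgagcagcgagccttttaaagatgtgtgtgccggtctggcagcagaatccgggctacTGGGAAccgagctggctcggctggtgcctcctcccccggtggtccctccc
Abcc9: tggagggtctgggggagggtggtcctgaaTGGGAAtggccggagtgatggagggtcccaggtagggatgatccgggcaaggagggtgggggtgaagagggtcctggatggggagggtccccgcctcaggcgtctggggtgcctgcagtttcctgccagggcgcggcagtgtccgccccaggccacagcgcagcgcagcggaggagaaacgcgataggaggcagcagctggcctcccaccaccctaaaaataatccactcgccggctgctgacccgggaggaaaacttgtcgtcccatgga
The CArG box lay in the Myl9 window, 161 bases before the start, and in 1 of the 16 contractile genes with a window (6.25%), against 488 of all 27025 genes (1.81%) and 535 of their 32851 windows (1.63%). TGGGAA lay 27 bases before the start of Acta2, at the start of Kcnj8 and 221 bases before the start of Abcc9, and in 28.3% of all genes and 25.6% of all windows. Among the contractile genes 5 of 16 had it (31.2%), and among the markers and rule genes of pericytes 8 of 17 (47.1%). A match is a description of letters, not of binding. The bodies of Kcnj8 and Abcc9 lie on the minus strand of chromosome 6 with 16247 bases between them.

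The libraries held 56551189 to 82745271 UMIs. Rgs5+ cells were shallower than fibroblasts, taken as cells with at least 2 Pdgfra UMIs, a UMI of Dcn, Lum or Col1a2, and none of Rgs5, Epcam or Pecam1. Their median was 3071.5 UMIs in puberty, 2951.5 in adult, 2239 in pregnancy, 2773 in lactation and 1958 at involution, against 7811, 6629, 4661, 7607 and 7855 in fibroblasts. In the placebo libraries the medians were 7461 and 6773.5. The median share of mt- UMIs in Rgs5+ cells was 6.51, 5.90 and 5.96% in puberty, adult and pregnancy and 2.38 and 2.74% in lactation and involution, while fibroblasts lay between 2.47 and 3.43% in all 5. Between 25 and 46 barcodes were shared by each pair of stage libraries, none of them an Rgs5+ cell. A doublet caller (Scrublet) marked 5, 1, 8, 7 and 7 of the Rgs5+ cells, which were kept.

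Fibroblast markers were the most abundant markers of another cell type in the Rgs5+ cells. The 14 fibroblast markers, all detected, summed to 5337 CPM (the UMIs of a gene scaled to all UMIs of the summed cells) in puberty, 7348 in adult, 11254 in pregnancy, 8406 in lactation and 12679 at involution, which is 6.07, 12.8, 15.1, 11.02 and 20.3% of the fibroblast sums. Dcn, a fibroblast proteoglycan, was detected in 15 of 60, 4 of 20, 27 of 99, 57 of 110 and 64 of 142 Rgs5+ cells. In adult 31 of 34 Dcn UMIs were in 1 cell. The top adult cell of each gene held 49 of 70 Col1a1 and 47 of 73 Col1a2 UMIs, so the adult sum rests in large part on single cells. Of 10 endothelial markers 7 were detected, summing to 50.8 to 96.5 CPM except in adult at 541 CPM, where 32 UMIs were counted, and Cdh5, Tie1 and Cldn5 were at 0. Of 10 luminal and milk genes 8 were detected, summing to 0, 0, 66.4, 338 and 25.5 CPM against 55.6 to 704 CPM in fibroblasts, with Krt8 and Krt18 at 0. The 7 immune markers summed to at most 3.91 CPM outside involution, where 20 UMIs gave 56.8 CPM. Basal myoepithelial, Schwann, red cell and myogenic lists summed to at most 19.5, 25.5, 15.1 and 5.51 CPM. Results were recomputed without cells holding Ptprc, Krt14 or Krt8, which left all 35 recomputed values on the same side. Of the stage libraries this removed only 1 cell in pregnancy and 1 at involution, so the values could hardly move. Leaving out cells holding Dcn or Lum moved 8 of 11 shares and counts and 4 of 24 single values. These are given beside those results or under the dependence on processing.

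**Figure D1:**
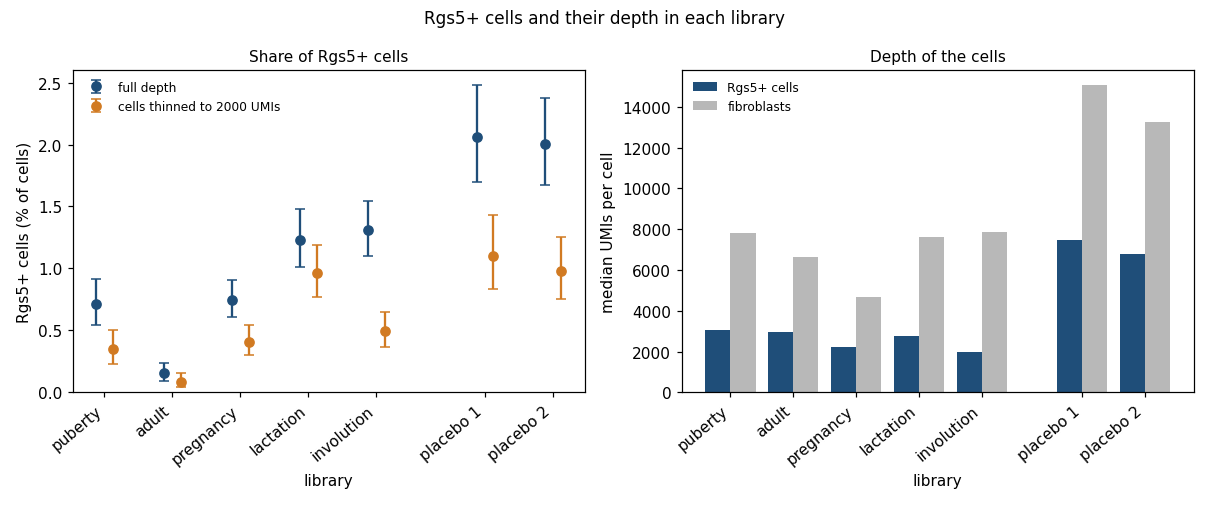
Left, share of Rgs5+ cells among barcodes within the limits (%, exact 95% binomial intervals), at full depth and thinned. Thinning took cells of at least 2000 UMIs down to 2000 and left out the rest. Right, median UMIs per cell of Rgs5+ cells and fibroblasts (bars from 0). The 5 stage and 2 placebo libraries are shown. Adult was lowest at 0.156% at full depth, and involution went from 1.31 to 0.497% when thinned.

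Rgs5+ cells were least frequent in the adult library and most frequent in lactation and involution at full depth. They made up 0.713% of barcodes in puberty (exact interval 0.545 to 0.917), 0.156% in adult (0.0952 to 0.241), 0.747% in pregnancy (0.607 to 0.908), 1.23% in lactation (1.01 to 1.48) and 1.31% in involution (1.10 to 1.54). The puberty share was 4.58 times the adult share (2.72 to 8.02) and the pregnancy share 0.607 times the lactation share (0.458 to 0.804). Neighbours that did not differ beyond counting error were puberty and pregnancy, at a ratio of 0.955 (0.681 to 1.33), and lactation and involution, at 0.939 (0.725 to 1.21). The order depended on depth and on fibroblast markers, and the shares also on the mt- limit. With at most 5% mt- UMIs the shares of puberty, adult and pregnancy were lower, as given under the dependence on processing. Among cells with 0 UMIs of Dcn and Lum the lactation share was 0.458%, below 0.499% in puberty and 0.505% in pregnancy, and involution held 0.608%. With cells of at least 2000 UMIs thinned to 2000 and shallower cells left out, the shares were 0.347, 0.0830, 0.409, 0.962 and 0.497%. Involution then lay near pregnancy. In involution 10270 of 10847 barcodes but only 68 of 142 Rgs5+ cells were deep enough to be kept, so part of that fall is the loss of shallow cells. The adult share also differed from that of the other virgin glands, since the placebo libraries, sequenced more deeply per cell, held 2.06 and 2.00% (1.10 and 0.979% thinned). Stage and library cannot be told apart in these shares, and the sort sets the denominator.

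The rule reads Rgs5, and Rgs5 itself differed between libraries. Its level in the Rgs5+ cells was 2291 CPM in puberty, 1605 in adult, 3630 in pregnancy, 9025 in lactation and 5455 at involution, with 1740 and 1535 CPM in the placebo libraries. The median was 5.5, 3, 8, 21 and 11 Rgs5 UMIs per cell. At the edge of the rule 16, 4, 8, 0 and 9 members held exactly 2 Rgs5 UMIs, while 28, 9, 14, 2 and 9 cells that met every other condition held 1 and stayed outside. A further 15, 9, 36, 3 and 50 cells met the Rgs5 limit without a UMI of Mcam, Notch3 or Cspg4, and 7, 4, 16, 24 and 26 were left out for a Pdgfra UMI. Notch3 was the partner found most often, in 52 of 60, 18 of 20, 87 of 99, 96 of 110 and 111 of 142 members, and its level stayed between 633 and 885 CPM. Mcam, an adhesion molecule of the vessel wall, was detected in 11, 4, 16, 85 and 47 members and read 77.1, 67.6, 66.4, 577 and 162 CPM. Its level in the placebo libraries, 312 and 235 CPM, lay between involution and lactation and above the other virgin glands. Cspg4, the NG2 proteoglycan, read 193, 152, 195, 414 and 165 CPM.

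Compared with the fibroblasts of the same libraries, 412 of 6065 genes were at least 2-fold higher in Rgs5+ cells in each of the 5 stages (6.79%) and 362 were at least 2-fold lower (5.97%). The members were chosen for this contrast, so the counts describe it. Outside the rule genes the largest median differences were at Higd1b, a hypoxia-inducible mitochondrial protein, at 209, 338, 739, 411 and 204 CPM against 0 to 0.390 CPM in fibroblasts. Ednrb, the endothelin B receptor, read 154, 67.6, 117, 311 and 681 CPM against 0.0410 to 0.749. Gja4, the gap junction protein connexin 37, read 297, 338, 324, 281 and 380 CPM, a range narrower than that of most markers, and was at or below 0.312 CPM in fibroblasts. Tmem273, H2-M9, Trpc6, Gm13861, Tmem182, Tmc5, Tinagl1 and Apold1 were the other genes among the 12 with the highest median ratio, and the 8 adult UMIs of H2-M9 came from 1 cell. Fabp4, a fatty acid carrier usually listed for adipocytes and capillary endothelium, read 4258, 6790, 8995, 6575 and 6071 CPM against 127 to 309 CPM in fibroblasts and was found in 51 of 60, 19 of 20, 94 of 99, 104 of 110 and 136 of 142 Rgs5+ cells. Cd36, a fatty acid transporter, read 149, 439, 422, 640 and 792 CPM against 3.34 to 21.7 CPM. At the other end were Inmt, Sfrp2, Smoc2, Mmp3, Cdh11 and the rule gene Pdgfra. Sfrp2, a secreted Wnt modulator, read 0 to 31.2 CPM in Rgs5+ cells and 232 to 534 CPM in fibroblasts.

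The contractile program was highest in virgin glands and lowest in involution. Acta2, smooth muscle actin, read 7706 CPM in puberty, 9273 in adult, 3329 in pregnancy, 1054 in lactation and 624 at involution. The placebo libraries read 6244 and 5867 CPM. The virgin libraries therefore all lay above the other 3. Acta2 in pregnancy was 0.359 times the adult level (0.322 to 0.400), and in lactation 0.317 times the pregnancy level (0.279 to 0.359). Between lactation and involution the ratio of 0.592 did not reach 2-fold, and this difference was sensitive to the cells used. It was -0.75 on the log2 scale, -1.78 among cells with 0 UMIs of Dcn and Lum, -1.25 with at least 5 Rgs5 UMIs, -1.15 with no Pdgfra limit and -0.01 with cells thinned. Against the placebo libraries in place of adult the pregnancy difference was -0.86 on the log2 scale, short of 2-fold. Tagln, the actin-binding protein transgelin, read 4621, 4932, 2012, 960 and 605 CPM, with 6669 and 6356 CPM in placebo. Myh11 read 1856, 1858, 629, 631 and 633 CPM, with 2525 and 2535 CPM in placebo. Its difference lay between adult and pregnancy, at a ratio of 0.339 (0.264 to 0.435), and the 3 later stages did not differ beyond counting error. Myl9, the regulatory light chain, read 2804, 2416, 1747, 1012 and 474 CPM and was past 2-fold only between involution and lactation, at a ratio of 0.468 (0.387 to 0.566). Mustn1, a small nuclear protein of muscle, read 1036, 1419, 359, 69.5 and 255 CPM and was 3.68-fold higher in involution than in lactation (2.31 to 6.09), against the direction of Acta2. Sncg, gamma-synuclein, was likewise lowest in lactation, with 991, 963, 332, 81.6 and 213 CPM.

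Over the list of 20 contractile genes, 16 reached 50 UMIs, and 15 of these were at least 2-fold above fibroblasts in all 5 stages. The summed level was 29529, 31891, 15435, 9535 and 6866 CPM, and 30992 and 30699 CPM in placebo, so the 4 virgin libraries lay within a narrow range. Fibroblast sums were 786, 845, 1480, 755 and 715 CPM. Between puberty and adult none of the 16 genes was 2-fold apart with an interval that excluded equality, where 55 of 3944 genes were higher (1.39%) and 82 lower (2.08%). In pregnancy against adult 0 were higher and 7 lower, with 187 of 3944 genes higher (4.74%) and 125 lower (3.17%), and a list median of -0.80 on the log2 scale beside 0.00 over all genes. In lactation against pregnancy 1 was higher and 5 lower, where 569 genes were higher (14.4%) and 412 lower (10.4%), with medians of -0.51 and 0.08. The higher gene was Casq2, a calcium store protein, whose 57 lactation UMIs came from 21 cells. In involution against lactation 2 were higher and 3 lower, where 304 genes were higher (7.71%) and 239 lower (6.06%), with medians of -0.37 and -0.09. Between the 2 placebo libraries 58 genes were higher (1.47%) and 41 lower (1.04%), and none of them was a contractile gene. In fibroblasts Acta2 read 43.0, 18.4, 233, 1.43 and 1.74 CPM, and the 5 basal myoepithelial markers summed to 37.0 CPM in pregnancy against 2.44 to 5.98 CPM at the other stages. Without the cells that held Krt14, Krt8 or Ptprc, Acta2 in pregnancy against adult was -1.48 on the log2 scale, as with them. That setting left out only 1 of 99 pregnancy cells and 0 of 20 adult cells. The value could therefore hardly differ, and it is no check on the myoepithelial markers.

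**Figure D2:**
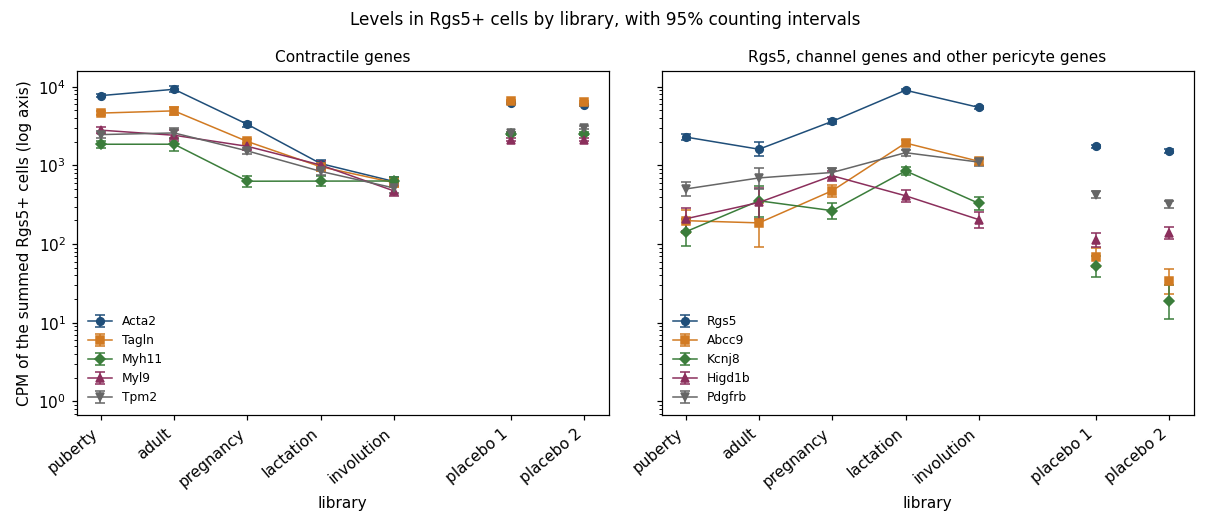
Levels (CPM, log axis) of 5 contractile genes (left) and of Rgs5, Abcc9, Kcnj8, Higd1b and Pdgfrb (right) in the summed Rgs5+ cells of each library, with exact 95% counting intervals as bars; lines join the 5 stages, and the 2 placebo libraries stand apart. Acta2 went from 9273 CPM in adult to 624 CPM in involution, while Abcc9 was highest in lactation at 1924 CPM.

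The channel genes were highest in lactation. Abcc9 read 198 CPM in puberty, 186 in adult, 477 in pregnancy, 1924 in lactation and 1127 at involution, and 68.0 and 33.7 CPM in the placebo libraries. All 4 virgin libraries lay below the 3 later stages. Abcc9 in pregnancy was 2.57 times the adult level (1.38 to 5.28), but this rested on 11 adult UMIs and turned to -0.35 on the log2 scale when only cells with at most 5% mt- UMIs were kept. In lactation Abcc9 was 4.04 times the pregnancy level (3.32 to 4.94). Kcnj8 read 143, 355, 266, 852 and 329 CPM, and 52.2 and 19.0 CPM in placebo. Kcnj8 in lactation was 3.21 times the pregnancy level (2.45 to 4.24), and in involution 0.387 times the lactation level (0.309 to 0.482). The placebo libraries differed from each other by 2.75-fold for Kcnj8 and 2.02-fold for Abcc9, on 43 against 18 and 56 against 32 UMIs, so differences of that size were also seen without a change of stage. Fibroblasts read 3.18 to 14.2 CPM for Kcnj8 and 16.6 to 29.3 CPM for Abcc9, with no maximum in lactation.

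Some other receptor and second messenger genes were also higher in lactation than in pregnancy. The list of 23 vasoactive receptors, channels and cyclic nucleotide genes summed to 2985, 2922, 3009, 6720 and 5646 CPM, and 3619 and 3386 CPM in placebo. These sums include Kcnj8 and Abcc9, at 852 and 1924 CPM in lactation, with their levels in pregnancy given above. A large part of the difference in the sum is thus that of the channel genes. In lactation against pregnancy 6 of its 14 genes past 50 UMIs were higher and 1 lower (14.4 and 10.4% of all genes), with a median of 0.86 beside 0.08 over all genes. The list includes Kcnj8 and Abcc9, which make 2 of the 6, and the others are Ednrb, Gucy1b1, Pde3a and Prkg1. Gucy1b1, a subunit of the nitric oxide-sensing guanylate cyclase, read 253, 186, 199, 523 and 349 CPM and was 2.62-fold higher in lactation (1.91 to 3.66). Agtr1a, the angiotensin II receptor, read 55.1, 50.7, 133, 224 and 224 CPM. Pde3a, which breaks down cyclic AMP, read 253, 321, 207, 471 and 451 CPM. Ednrb in involution, at 681 CPM, was 2.19 times the lactation level (1.73 to 2.79), with the placebo libraries at 42.5 and 201 CPM and so 4.74-fold apart.

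Among the 24 pericyte markers outside the rule, 9 of 23 were higher in lactation than in pregnancy and 2 lower, where 14.4% of all genes were higher and 10.4% lower, with a median of 0.83 beside 0.08. Of these 9, Kcnj8, Abcc9 and Gucy1b1 are also in the vasoactive list, and Heyl is also in the Notch pathway list. Steap4, a metalloreductase, read 176, 152, 270, 1546 and 1311 CPM, with 134 and 116 CPM in placebo, and was 5.74-fold higher in lactation than in pregnancy (4.45 to 7.49). Pdgfrb, the receptor through which endothelial Pdgfb recruits pericytes, read 501, 693, 813, 1450 and 1101 CPM and was past 2-fold in none of the 4 contrasts. Art3 read 182, 270, 356, 767 and 386 CPM, and Cox4i2, a hypoxia-regulated cytochrome oxidase subunit, 154, 203, 328, 668 and 247 CPM. Higd1b had its maximum in pregnancy instead. Gm13889 read 3206, 2618, 2302, 758 and 2872 CPM and was lowest in lactation, at 0.329 times the pregnancy level (0.283 to 0.382).

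**Figure D3:**
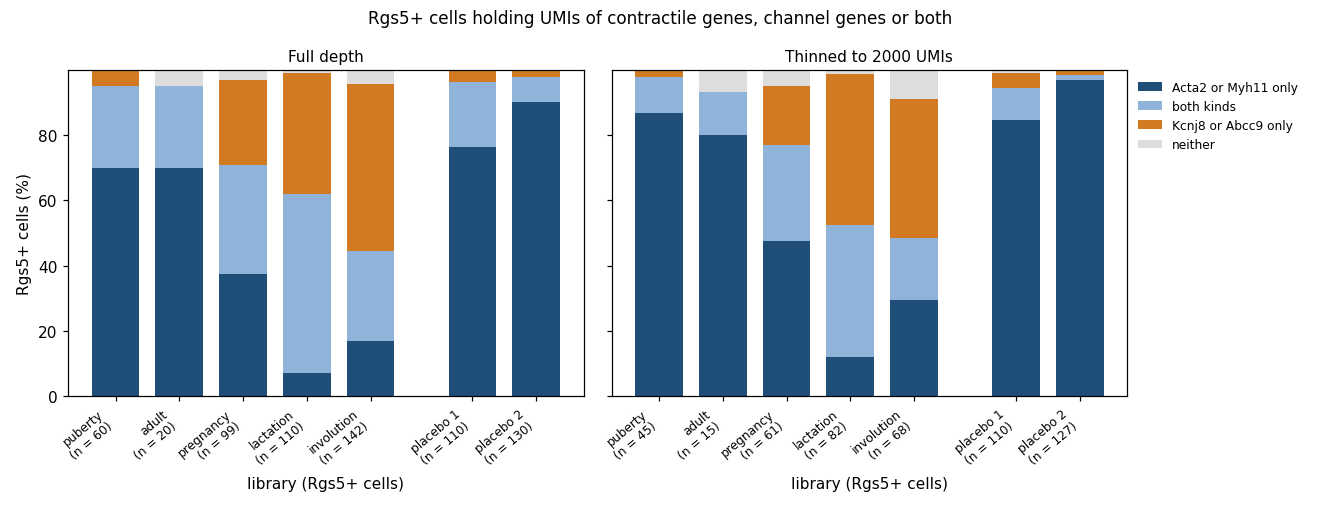
Percentage of Rgs5+ cells (n under each library) with a UMI of Acta2 or Myh11 only, Kcnj8 or Abcc9 only, both kinds or neither. Left, full depth. Right, cells of at least 2000 UMIs thinned to 2000, with shallower cells left out. At full depth contractile-only cells went from 42 of 60 in puberty to 8 of 110 in lactation, and channel-only cells from 3 of 60 to 73 of 142 in involution.

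Cell by cell, contractile genes without channel genes were most common in the virgin libraries. Cells with a UMI of Acta2 or Myh11 and none of Kcnj8 or Abcc9 were 42 of 60 in puberty (70.0%, 56.8 to 81.2), 14 of 20 in adult (70.0%, 45.7 to 88.1), 37 of 99 in pregnancy (37.4%, 27.9 to 47.7), 8 of 110 in lactation (7.27%, 3.19 to 13.8) and 24 of 142 in involution (16.9%, 11.1 to 24.1). Cells with the channel genes alone were 3 of 60, 0 of 20, 26 of 99, 41 of 110 and 73 of 142. The adult count of 0 allows up to 15.0% of cells with such UMIs, taking 3 counts of 20, while the exact upper limit was 16.8%. Neither value limits the cells that express the genes. At full depth contractile-only cells were fewest in lactation and channel-only cells most frequent in involution, unlike the summed levels. Cells with both kinds were 15, 5, 33, 60 and 39. The placebo libraries held 84 of 110 and 117 of 130 contractile-only cells and 4 and 3 channel-only cells. With cells thinned to 2000 UMIs, which left out 15, 5, 38, 28 and 74 shallower cells, contractile-only cells were 39 of 45, 12 of 15, 29 of 61, 10 of 82 and 20 of 68, channel-only cells 1 of 45, 0 of 15, 11 of 61, 38 of 82 and 29 of 68, and cells with both kinds 5, 2, 18, 33 and 13. Channel-only cells then had their highest share in lactation, at 46.3% (35.3 to 57.7). Involution, at 42.6% (30.7 to 55.2), lay within overlapping intervals, so the order of these stages is not settled. Detection has a background. The fibroblast detection shares here are from cells by the same rule but with no limit on Rgs5. Abcc9 was found in 18.2, 9.62, 8.93, 9.96 and 10.8% of fibroblasts at median depths of 7817, 6632, 4676, 7623.5 and 7861 UMIs. Abcc9 was found in 21.7, 15.0, 51.5, 88.2 and 76.1% of the shallower Rgs5+ cells. The shares in puberty and adult were thus close to those of the deeper fibroblasts, although the Abcc9 levels of 198 and 186 CPM lay above the 29.3 and 16.9 CPM of fibroblasts there. Acta2 was found in 1.23 to 14.04% and Myh11 in 0.587 to 3.04% of fibroblasts.

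Splitting the Rgs5+ cells by Myh11 gave both kinds in every library. Myh11 made the split, a cell without a UMI may be a shallow one, and the median depth without Myh11 was 1547.5, 2518, 2092, 2565 and 1744 UMIs by stage, so these values are a description. Cells with a Myh11 UMI read 8747, 10819, 6123, 1692 and 1293 CPM of Acta2, and cells without read 2081, 2020, 1114, 133 and 62.7 CPM. On both sides of the split Acta2 was higher in puberty and adult than in pregnancy, and lower again in lactation and involution. Kcnj8 in cells without Myh11 read 705 CPM in puberty, 1058 in adult, 322 in pregnancy, 1167 in lactation and 475 at involution, and 679 and 990 CPM in placebo. Abcc9 in the same cells read 988, 577, 659, 2230 and 1499 CPM, and 966 and 1371 CPM in placebo. The Myh11-negative cells numbered 14, 5, 55, 51 and 89 by stage and 10 and 4 in placebo. Among them all 4 virgin libraries read more Kcnj8 than pregnancy or involution. In these cells Abcc9 in pregnancy against adult was 0.08 on the log2 scale, and the contractile list -0.13. The difference of Abcc9 between lactation and pregnancy kept its direction at 1.75. In sums over all Rgs5+ cells, fewer cells with Myh11 and less RNA per cell cannot be told apart.

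The summed basement membrane genes were highest in lactation, in Rgs5+ cells and in fibroblasts, with exceptions among the single genes. Col4a1, the type IV collagen chain that forms the sheet between pericyte and endothelium, read 1036 CPM in puberty, 1047 in adult, 2235 in pregnancy, 4636 in lactation and 1643 at involution. The placebo libraries read 766 and 580 CPM, so the virgin libraries were lowest. Col4a1 was 2.13-fold higher in pregnancy than in adult (1.64 to 2.82), 2.07-fold higher in lactation than in pregnancy (1.88 to 2.29) and in involution 0.354 times the lactation level (0.322 to 0.390). The lactation difference, 1.05 on the log2 scale, was short of 2-fold in 5 of 14 alternatives, at 0.74 to 0.97. The alternatives with no UMI floor and with detection in at least 10% of cells could not change this value. In fibroblasts Col4a1 read 859, 831, 1635, 2700 and 1706 CPM. Nid1, the linker nidogen, read 165, 101, 500, 1108 and 508 CPM. The laminin gene Lama2 read 27.5, 50.7, 78.2, 284 and 199 CPM and was 3.63-fold higher in lactation than in pregnancy (2.22 to 6.22). Over the 16 genes of the list, 13 reached 50 UMIs. In pregnancy against adult 4 were higher and 0 lower (4.74 and 3.17% of all genes), in lactation against pregnancy 6 and 0 (14.4 and 10.4%), and in involution against lactation 0 and 3 (7.71 and 6.06%), with list medians of 0.91, 0.90 and -0.65, and fibroblast medians of 0.65, 0.60 and -0.56. Col18a1 and Lamb2 were highest in adult, at 405 and 304 CPM, and Hspg2 in pregnancy, at 254 CPM. The list summed to 6891, 6976, 12848, 17585 and 8552 CPM in Rgs5+ cells.

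The interstitial matrix list had 18 of 20 genes past 50 UMIs, and 11 were higher in pregnancy than in adult and 0 lower (4.74 and 3.17% of all genes), with a median of 1.00 and a fibroblast median of 0.70. This list and the fibroblast markers share 3 collagen genes, and the fibroblast sum moved with it as given above. Of the adult UMIs of Col1a1 and Col1a2, 49 of 70 and 47 of 73 were in the top cell of the gene. In involution against lactation 7 of 12 fibroblast markers were higher and 0 lower (7.71 and 6.06% of all genes), with a median of 1.10. Mgp, matrix Gla protein, went from 205 to 1453 CPM in that contrast and from 1416 to 5078 CPM in fibroblasts, and it read 520 and 114 CPM in placebo.

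**Figure D4:**
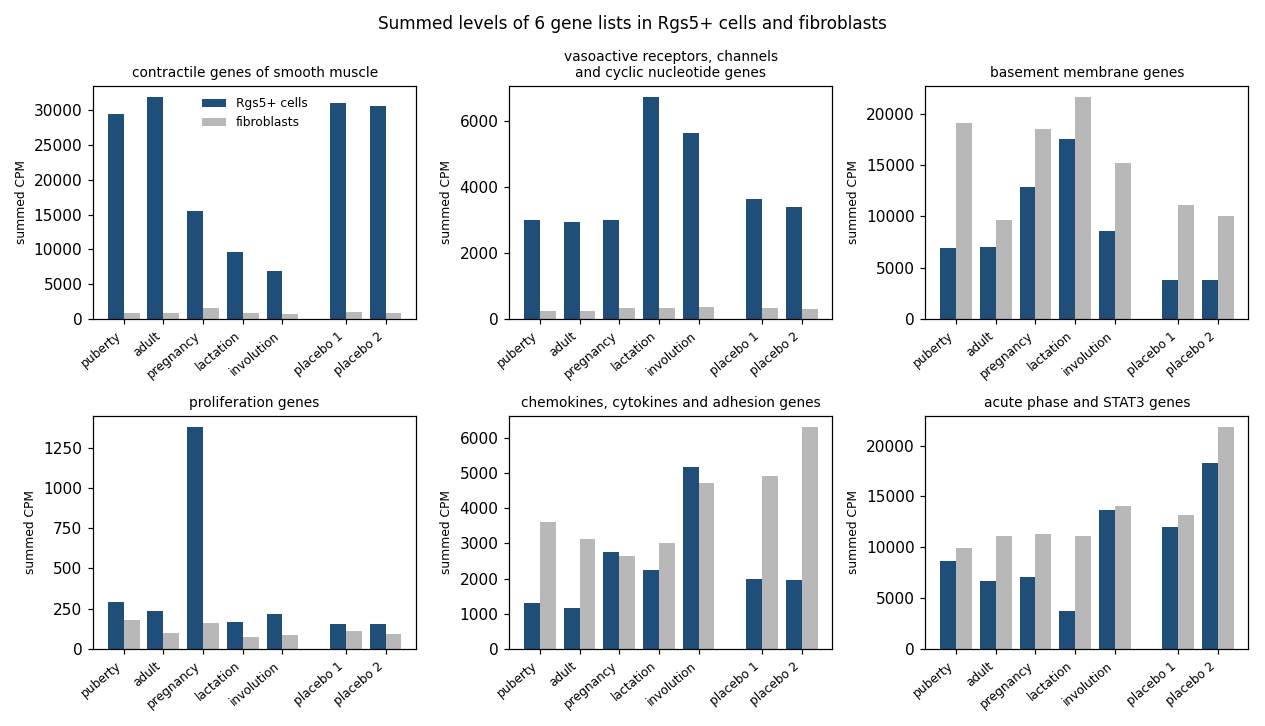
Summed CPM of 6 gene lists in Rgs5+ cells and fibroblasts of the 5 stage and 2 placebo libraries (bars from 0, 1 library each, no error bar). In Rgs5+ cells, contractile genes were highest in the 4 virgin libraries, vasoactive and basement membrane genes in lactation, and proliferation genes in pregnancy.

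Notch pathway genes had no single direction over the stages. The list includes Notch3, a gene of the rule, so its counts and medians rest in part on values that chose the members. Of 7 past 50 UMIs, 0 were higher and 2 lower in pregnancy than in adult (4.74 and 3.17% of all genes), 3 higher and 0 lower in lactation than in pregnancy (14.4 and 10.4%), and 0 higher and 2 lower in involution than in lactation (7.71 and 6.06%). The list medians were -1.05, 0.76 and -0.35, beside 0.00, 0.08 and -0.09 over all genes. Heyl, a Notch target of mural cells, read 138, 101, 35.2, 233 and 76.6 CPM and was 6.61-fold higher in lactation than in pregnancy (3.31 to 15.0). Nrarp, a Notch feedback gene, read 231, 321, 62.5, 84.6 and 34.1 CPM, with 365 and 371 CPM in placebo, and in pregnancy was 0.195 times the adult level (0.0937 to 0.400). The 2 targets thus had different stage orders. Of 15 genes of the TGF-beta and BMP list, 4 were higher and 3 lower in lactation than in pregnancy, where 14.4% of all genes were higher and 10.4% lower. Id3, a target of BMP signalling, read 3806, 1993, 1375, 577 and 1357 CPM, with 3154 and 4008 CPM in placebo, and Id1 read 573, 422, 223, 78.5 and 210 CPM. Both were past 2-fold lower in lactation than in pregnancy and higher again in involution. Of 6 endothelial crosstalk genes 0 were higher and 2 lower in pregnancy than in adult (4.74 and 3.17% of all genes), 1 and 1 in lactation against pregnancy (14.4 and 10.4%), and 1 and 0 in involution against lactation (7.71 and 6.06%).

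Mki67, Top2a and Stmn1, genes of dividing cells, were highest in pregnancy. Mki67, a marker of cycling cells, read 27.5 CPM in puberty, 0 in adult, 176 in pregnancy, 33.2 in lactation and 2.84 at involution, from 1, 0, 17, 1 and 1 cells, and all 11 lactation UMIs were in 1 cell. In placebo 0 and 1 UMI were counted. Thus 17.2% of Rgs5+ cells in pregnancy held Mki67 (10.3 to 26.1), and 10 of 61 cells still did after thinning. Among fibroblasts there, with no limit on Rgs5, the share was 1.89%. Relative to adult, with 0 UMIs, the level was at least 3.47-fold higher, taking 3 UMIs as the most that a count of 0 allows. Top2a, the mitotic topoisomerase, was counted at 55 UMIs in 13 pregnancy cells and 0 in adult, which is 4.24-fold with 3 UMIs in place of 0. The 12 proliferation genes summed to 292, 236, 1379, 169 and 213 CPM. Of the 12, 4 reached 50 UMIs, and Mki67, Top2a and Stmn1 did so through pregnancy. Their maximum there is thus a description, and a count of those past 2-fold is not read. The remaining gene, Pcna, a replication clamp also used in repair, was highest in involution at 159 CPM. The other leading genes of pregnancy against adult were Hist1h2ap, Spon1, Pi16 and Ccdc34 among the higher, each on 0 or 1 adult UMIs. Spon1, a matrix protein, was counted at 54 UMIs in 36 cells, whereas the 124 UMIs of Pi16, a fibroblast gene, were in 13 cells. Among the lower were Tcf15, H2-M9, Tnfrsf12a, Rasl11a and Kank2. Tcf15, a transcription factor of endothelial and mesodermal cells, read 127, 287, 35.2, 75.5 and 53.9 CPM, with 168 and 179 CPM in placebo.

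In puberty against adult the leading genes rested on 0 to 5 UMIs in the 20 adult cells, with Rbfox2, Rab6b, Psme1, Rnf122, Rgs3 and Brd3 higher in puberty and Ccdc141, Opcml, Prpf8, Brd1, Cops2 and Ucp2 lower. Rbfox2, a splicing factor, was counted at 23 UMIs in 18 of 60 puberty cells and 0 in adult, yet its fibroblast difference was -0.15 on the log2 scale.

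In lactation against pregnancy 981 of 3944 genes were apart. Counts of genes depend on the cells and UMIs summed, and the contrasts with adult rest on 20 cells, so they are not ranked by size. In fibroblasts only 279 genes were past 2-fold in this contrast, which limits the overlap. Of the 981 genes, 134 were also past 2-fold in the same direction in fibroblasts and 13 in the opposite one. Idi1, which makes the isoprenoid unit, read 33.1, 50.7, 15.6, 184 and 5.68 CPM and was 11.8-fold higher in lactation than in pregnancy (4.38 to 44.6). In fibroblasts its log2 difference was 4.78. Fdps, the next enzyme, read 27.5, 33.8, 50.8, 245 and 17.0 CPM. Fdps, Idi1 and Msmo1 were among the genes furthest below lactation in involution. Ccl11, the eosinophil chemokine eotaxin, read 27.5, 16.9, 19.5, 622 and 187 CPM, was found in 69 of 110 lactation cells, and was 31.8-fold above pregnancy (13.4 to 99.1). The placebo libraries read 86.2 and 26.4 CPM. Its fibroblast level was 116 CPM in pregnancy and 738 CPM in lactation. The other leading genes were E130102H24Rik, Cilp, Hspa1b and 1810026B05Rik among the higher, and Hist1h2ap, Top2a, Stmn1, Cxcl9, Cxcl10 and Pdlim3 among the lower. Gm42418, which overlaps ribosomal RNA genes, took 57433 CPM in lactation against 6959 CPM in pregnancy, and 17471 against 3127 CPM in fibroblasts. Genes whose difference was far above that of fibroblasts were Casq2, Ednrb and Pawr, and far below Crispld2, Adamtsl1, Cxcl9 and Egr2.

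Several cytokine, acute phase and stress genes were higher in involution than in lactation, though not every gene of these lists. Il6 read 176 CPM in puberty, 101 in adult, 176 in pregnancy, 81.6 in lactation and 976 at involution, from 46 of 142 cells there, and lay 3.56 above lactation on the log2 scale (8.09 to 18.4 as a ratio). The placebo libraries read 677 and 393 CPM, so a high Il6 was not limited to involution. Fibroblast Il6 was 115 CPM in lactation and 270 CPM at involution. Of 9 chemokine, cytokine and adhesion genes 6 were higher and 2 lower in involution than in lactation, where 7.71% of all genes were higher and 6.06% lower. The list median was 1.33 beside -0.09 over all genes and 0.85 for the list in fibroblasts. Cxcl1, a neutrophil chemokine, read 799, 676, 1344, 1048 and 2645 CPM and Ccl2, a monocyte chemokine, 27.5, 0, 106, 87.6 and 426 CPM, with 126 and 395 CPM in placebo. Of 10 acute phase and STAT3 genes 6 were higher and 0 lower, with a median of 1.16 and 0.41 in fibroblasts. Among these, Mt1, a metallothionein, read 5558, 4122, 4349, 1619 and 8512 CPM and Osmr, the oncostatin M receptor, 132, 135, 86.0, 136 and 355 CPM. Cebpb, a transcription factor of the acute phase response, read 154, 118, 106, 589 and 1970 CPM, but 2703 and 3400 CPM in placebo. Of 16 immediate early and heat shock genes 11 were higher and 0 lower, with a median of 1.33 and 0.25 in fibroblasts. Of 11 interferon and antigen presentation genes 6 were higher and 0 lower, with a median of 1.16 and 0.91 in fibroblasts. The acute phase and stress lists were not highest in involution alone. The acute phase list summed to 8670, 6689, 7073, 3730 and 13684 CPM by stage and 11996 and 18283 CPM in placebo. The immediate early and heat shock list summed to 34277, 33597, 19987, 16114 and 34308 CPM, with 45105 and 35476 CPM in placebo, so lactation was the low value. The largest single differences included Ccl21a, Apoe and Clu, of which 123 of 123, 124 of 160 and 45 of 46 UMIs were in 1 cell each. Cxcl9 and Cxcl10, interferon-induced chemokines, and Gm20186 were found in 15, 21 and 14 cells. Of their UMIs, 37 of 81, 46 of 148 and 8 of 35 were in 1 cell each. Timp4, a protease inhibitor, went from 24 UMIs in lactation to 2 in involution, at a ratio of 0.0783 (0.00897 to 0.315), while fibroblasts differed by 0.20 on the log2 scale and the placebo libraries held 27 and 75 UMIs. Without the cells that held Dcn or Lum, Il6 was 4.54 and the acute phase list 2.24 on the log2 scale above lactation.

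Of 5 hormone receptor genes past 50 UMIs, 3 were higher in lactation than in pregnancy and 0 lower (14.4 and 10.4% of all genes). Nr3c1, the glucocorticoid receptor, read 149, 84.5, 141, 393 and 329 CPM and was 2.79-fold higher in lactation (1.92 to 4.16). Insr, the insulin receptor, was counted at 20 UMIs in lactation and 1 in pregnancy, a ratio of 15.5 (2.47 to 641). Of 7 hypoxia and glycolysis genes 0 were higher in any of the 4 contrasts, and 1 was lower in lactation than in pregnancy (10.4% of all genes) and 1 in involution than in lactation (6.06%). Of 8 lipid handling genes 0 were higher and 2 lower in puberty than in adult (1.39 and 2.08% of all genes), 1 and 0 in pregnancy against adult (4.74 and 3.17%), 1 and 1 in lactation against pregnancy (14.4 and 10.4%), and 1 and 1 in involution against lactation (7.71 and 6.06%).

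Virgin glands were available in 2 sets, which were not alike. With the placebo libraries summed and puberty and adult summed, 150 of 3944 genes were at least 2-fold higher in placebo (3.8%) and 201 lower (5.1%). Of the 569 genes higher in lactation than in pregnancy, 43 were also higher in placebo than in puberty and adult (7.56% of the first and 28.7% of the second list), and 29 were lower. Mcam, Cebpb, Gm42418 and AY036118 were higher in placebo by 1.82, 4.38, 1.87 and 3.50 on the log2 scale, and by 2.14, 3.71, 2.58 and 3.70 in fibroblasts. For these genes a difference was present between virgin libraries of both cell populations. Acta2, Tagln and Myh11 differed by -0.42, 0.47 and 0.45, none of them past 2-fold. Kcnj8 and Abcc9 were lower in placebo by 2.51 and 1.98, opposite to the direction of lactation against pregnancy. What differed between the 2 sets of libraries besides the placebo was not tested.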

How the data were processed

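Mammary stromal cells of each condition were profiled with the 10x Chromium 3′ v3 assay. The values are UMI counts per gene and barcode, deposited by the authors as filtered matrices of 32285 genes, and the submitters' processing notes name Cell Ranger 6.1.2 and mm10. The annotation release is not given in the sources used here. Cells from 7 of the 13 libraries were used (5 stages and 2 placebo), and groups were taken from the labels.

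UMI counts were summed over the Rgs5+ cells, or over the fibroblasts, of each library and scaled to counts per total (CPM). No cluster was named. Genes with at least 50 UMIs over the stage libraries were compared, with exact conditional 95% intervals. A gene counted as apart at a ratio of at least 2 whose interval excluded 1. A fold against 0 UMIs used 3 UMIs in that library, and log2 ratios used an offset of 0.5 UMIs. Against fibroblasts, a gene had to be at least 2-fold apart in the same direction in all 5 libraries, with no interval required. The floor there was 50 UMIs over Rgs5+ cells and fibroblasts of the 5 libraries, with fibroblast sums scaled to the Rgs5+ total. Cells with at least 2000 UMIs were thinned at random to 2000 for shares, and shallower cells were left out. Doublets were scored with Scrublet and not removed. Python 3.11.15, numpy 2.4.6, scipy 1.17.1, scanpy 1.11.5 and pandas 2.3.3 were used, and edgeR 4.0.16 (TMM) and DESeq2 1.42.0 (size factors) in R 4.3.3 gave other scalings only. The counting script was tested on simulated data.

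The genes named are the 7 genes of the rule, the 12 genes highest and 6 lowest against fibroblasts, the 6 highest and 6 lowest of each stage contrast, the 4 in each direction furthest from the fibroblast difference, and, from each list, the 4 with the most UMIs and the 4 with the widest range over stages. Some genes that this rule names are not reported here. Other named genes were chosen after their values were seen. The members and the 24 gene lists were chosen with earlier results of these data known. Intervals and floors cover counting error only, and cells of a library are not replicates. Libraries of MPA with estradiol, hyperplasia and tumour were not used here.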

Additional observations from a re-analysis of the deposited data

Results flagged for a closer look

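In 9 of the named genes the Rgs5+ cells and the fibroblasts of the same libraries moved past 2-fold in opposite directions. All 9 were among the genes named for the largest difference from fibroblasts, so that choice favours opposite directions. Over all genes past 2-fold in Rgs5+ cells, 11 of 312 were opposite in pregnancy against adult, with 12 in the same direction. The opposite counts were 13 of 981 in lactation against pregnancy and 7 of 543 in involution against lactation, with 134 and 65 in the same direction. In fibroblasts 89, 279 and 116 genes were past 2-fold in these contrasts, in the same order, which limits both kinds of overlap. With 1 library per stage the difference between the populations was not tested. Values are log2 differences, with the Rgs5+ cells first. In pregnancy against adult, Acta2 differed by -1.48 and 3.66, Myh11 by -1.56 and 2.96, and Pdlim3, an actin-associated PDZ and LIM protein, by -1.58 and 3.28. The 5 basal myoepithelial markers in those fibroblasts summed to 37.0 CPM in pregnancy and 5.98 CPM in adult, and their part was not tested. In lactation against pregnancy, Ednrb differed by 1.39 and -3.31, Pawr by 2.26 and -2.43, and Crispld2 by -2.63 and 1.42. For Ednrb the fibroblast value rests on 2 against 6 UMIs, and for Pawr the Rgs5+ value on 15 against 2. In involution against lactation, Mki67 differed by -3.03 and 2.11, on 1 against 11 UMIs that were all in 1 lactation cell. Specc1 differed by -1.16 and 1.71, and Pakap, a symbol shared by 2 features, by -1.07 and 2.63.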

How the results depend on the processing

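Of 130 recomputed comparison values, 84 stayed within 1.5 times the reported count or within counting error of the reported share. No paired analysis was possible because each stage is 1 library and no test was made. The limit of 20% mt- UMIs, the 10% detection limit, leaving out the top cell of each gene, thinning of summed cells, placebo or puberty in place of adult, and 0 UMIs of Dcn and Lum were chosen after seeing the data. The cause of the shifts was not tested, except that several settings use fewer cells or fewer UMIs. Rgs5+ shares in the order of stages were 0.713, 0.156, 0.747, 1.23 and 1.31%. With at least 5 Rgs5 UMIs they were 0.392% in puberty, 0.0546% in adult, 0.551% in pregnancy and 1.05% in involution. With at most 5% mt- UMIs they were 0.181, 0.0660 and 0.240% in the first 3. With 0 UMIs of Dcn and Lum they were 0.499, 0.505, 0.458 and 0.608% in puberty, pregnancy, lactation and involution. Thinned, they were 0.347, 0.0830, 0.409, 0.962 and 0.497%. Genes apart from fibroblasts (774) numbered 451 at 5% mt-, 1689 with no UMI floor and 401 in cells without Myh11, and 724 to 838 when 1 stage library was left out. For puberty against adult (137) the counts were 287 with no Pdgfra limit, 89 at 5% mt-, 228 with no floor, 63 without Myh11, 74 thinned and 342 with placebo for adult. For pregnancy against adult (312) they were 206 at 5 Rgs5 UMIs, 144 at 5% mt-, 186 without Dcn and Lum, 134 without Myh11, 158 thinned, 942 with placebo and 475 with puberty for adult. For lactation against pregnancy (981) they were 570 at 5% mt-, 555 without Dcn and Lum, 1583 with no floor, 509 without Myh11 and 550 thinned. For involution against lactation (543) they were 283, 994, 276 and 350 under the last 4 of these. Between the placebo libraries (99) they were 211 with no Pdgfra limit, 184 at 5% mt-, 37 without Dcn and Lum, 458 with no floor and 55 thinned. Among 347 values of single genes and lists, 318 kept direction and side of 2-fold, 24 were no longer past it (Col4a1 in lactation against pregnancy in 5 settings, at 0.74 to 0.97), 4 were newly past it (3 of them Acta2 in involution against lactation, at -1.15 to -1.78), and 1 turned: Abcc9 in pregnancy against adult, 1.30 as reported and -0.35 at 5% mt-. The settings with no floor and with the 10% detection limit act only on counts of genes. Single values could not move under them, and they are part of the 318. Without Dcn and Lum the summed contractile list was -0.95 in pregnancy against adult (-1.05 as reported), and the vasoactive list 0.96 in lactation against pregnancy. In lactation against pregnancy the contractile list (-0.69 as reported) was -1.02 without Dcn and Lum. It was smaller in other settings, at -0.49 with at least 5 Rgs5 UMIs and -0.55 with no Pdgfra limit. The 20 adult cells and their 59201 UMIs limit every contrast with adult.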
